A study of Homo sapiens with 8 samples.

Results

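The 10 genes described here are the NF-κB subunits RELA, REL, NFKB1, RELB and NFKB2, the inhibitors NFKBIA, NFKBIB, NFKBIE and TNFAIP3, and ICAM1, a gene that NF-κB switches on. They were taken by symbol from 54174 symbols in the deposited expression table, and all 10 had a value in all 8 libraries. The list was drawn up after RELB and ICAM1 had been seen among the largest differences between knockout and control in these same libraries. The difference between the groups is therefore given for each member as a description, without a p-value of its own, and supports nothing. Calls of members for this difference are counted only to describe the fits, and nothing is read from them.

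Total RNA was sequenced from 143B cells, an established human osteosarcoma line. The 4 control libraries came from cells transiently transfected with a vector plasmid, and the 4 knockout libraries from cells given a NELL1 knockout plasmid, each for 48 h. NELL1 encodes a secreted matrix protein. Both groups share the cell line, the culture medium and the transfection reagent, and the labels describe no selection of edited cells, so a library can hold edited and unedited cells together.

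NF-κB is a family of dimeric transcription factors that share a DNA-binding Rel homology region. In resting cells the dimers are held in the cytoplasm by inhibitors of the IκB family. In the canonical branch a signal from a receptor activates the IκB kinase complex, IκB is destroyed, and dimers such as p50-RelA enter the nucleus. In the non-canonical branch the p100 precursor, the product of NFKB2, is cut to p52, which acts with RelB. Several of the genes in the pathway, among them NFKBIA, TNFAIP3, NFKB2, RELB and ICAM1, are textbook targets of NF-κB itself.

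The places where NF-κB could bind near these genes are shown first, because the members include both regulators and targets. Promoter sequences came from RefSeq on GRCh38.p14, a patch release of the build GRCh38 that the submitters' processing notes name. They were found for 8 of the 10 members, and 2 members, RELB and NFKBIE, had no entry. The 250 bases before each start were searched on both strands for GGNNNTTCC, a short form of the κB site in which N is any base. A match was found for 7 of the 8 members, and in 8 of 13 start sites of members (61.5%). The share was 17.1% over all 35116 promoters and 20.3% over those of tested genes. RELA had no match in either of its entries. A match is a description of letters, not a measured binding site.

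Matches from members with a large and with a small difference between the groups are set side by side here. All are written 5′ to 3′ on the gene's strand, with matched letters in capitals and positions counted back from the start.
ICAM1: gctttagcttGGAAATTCCggagctgaag
NFKBIA: tgactggcttGGAAATTCCccgagcctga
REL: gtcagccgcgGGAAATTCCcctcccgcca
NFKB1: gacgtcagtgGGAATTTCCagccaggaag
NFKB2: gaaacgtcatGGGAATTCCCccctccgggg
TNFAIP3: ctttGGAAAGTCCcgtGGAAATCCCcggg

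The ICAM1 window lies at chr19:10270924-10270952 on the plus strand, with its match at -186 to -178. The NFKBIA window is at chr14:35404812-35404840 on the minus strand (match at -81 to -73), and the REL window is at chr2:60881518-60881546 (match at -46 to -38). The NFKB1 window is at chr4:102501301-102501329 (match at -48 to -40), the NFKB2 window is at chr10:102394461-102394490, and the TNFAIP3 window is at chr6:137867188-137867216, all on the plus strand. The same 9 letters, GGAAATTCC, stood in ICAM1, NFKBIA and REL, and they match on either strand. In NFKB2 the capitals are 2 overlapping matches on opposite strands, starting at -107 and -106. In TNFAIP3 they are 2 separate matches. All of these windows except that of NFKBIA overlapped an exon annotated by GENCODE 29. NFKBIB, which had a higher mean in the knockouts, also had 2 matches, at -27 to -19 and -10 to -2, not printed here. Further matches in NFKB2 are not printed either.

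NFKBIA carried a second match farther from its start, at -242 to -234. The stretch holding both, at chr14:35404812-35404991 on the minus strand, is shown because NFKBIA encodes the main feedback inhibitor of the pathway.
NFKBIA: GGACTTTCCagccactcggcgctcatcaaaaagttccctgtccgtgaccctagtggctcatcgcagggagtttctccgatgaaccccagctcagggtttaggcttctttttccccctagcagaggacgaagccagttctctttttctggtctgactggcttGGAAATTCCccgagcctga
Of all 35116 promoters, 1.89% held at least 2 matches.

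Values are the deposited log2 values, which were already quantile normalized between libraries. A value compares the same gene across libraries. It does not rank different genes, because the table does not say whether transcript length was taken into account. Each library had a value for 14911 to 15171 genes, and no read totals are given, so depth is unknown. NELL1 itself averaged -5.87 in the controls and -5.88 in the 3 knockout libraries with a value, far below the median of 1.77. It differed by 1.63 in replicates 1 and 2 and by -2.19 in replicates 3 and 4, where knockout library 3 was blank. At such low values it did not check the labels. Across the 9016 genes tested (complete across libraries, with an average of 1 or more), the SD of the difference between knockout libraries 1 and 2 was 0.12, and between 3 and 4 it was 0.13. Between those pairs it was 0.46 to 0.50, above the 0.36 to 0.45 between any knockout and any control library. Replicates 1 and 2 and replicates 3 and 4 are therefore also given apart, although the labels do not say that they were prepared together. The controls paired less clearly. Their SD of the difference was 0.10 between controls 1 and 2 and 0.19 between 3 and 4, but 0.13 between 2 and 4.

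Among the labelled lineage's markers, VIM averaged 10.8 in the controls, while the osteoblast genes SP7 and IBSP were blank in all libraries and COL1A2 was at -7.54 in the 2 controls with a value. The summed linear level of the 8 lineage markers with a value was 1820 to 1935 in the controls and 1251 to 1718 in the knockouts, mostly from VIM, whereas SPARC was higher in the knockouts, at 6.12 against 5.49. Of 10 leukocyte markers, 6 had a value, and the pan-leukocyte marker PTPRC was blank in all libraries. The summed linear level of the leukocyte list was 54.1 to 60.8 in the controls and 47.5 to 60.0 in the knockouts, nearly all from CD68. That of the 5 endothelial markers was 0.109 to 0.379 and 0.188 to 0.663. That of the 5 epithelial markers, which include KRT8 and KRT18, was 535 to 578 and 611 to 702, and their part in the results was not tested. In bulk RNA, fewer cells that express a gene and less RNA per cell cannot be told apart.

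Of the 10 members, 8 were tested, and REL and TNFAIP3 were below the minimum mean. In the limma fit, 6 of the 8 were called (p adjusted by Benjamini-Hochberg, under 0.05). They were RELA, NFKB1, RELB, NFKB2, NFKBIA and ICAM1, all lower in the knockout libraries. The share called over all tested genes was 13.1%, with 6.1% lower and 7.02% higher. In these same 6 members every knockout library was below every control, as in 10.4% of all tested genes, and 22.9% of genes had groups that did not overlap in either direction. Since the list was drawn up from this contrast, nothing is read from either count, nor from the member counts of the other fits of this contrast. With the replicate number as a block, RELA and NFKB1 were no longer called and 4 members were, against 10.2% of all tested genes and 4.57% with the lower sign. The median difference over the 8 tested members was -0.71 log2 units, against 0.01 over all tested genes.

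**Figure D1:**
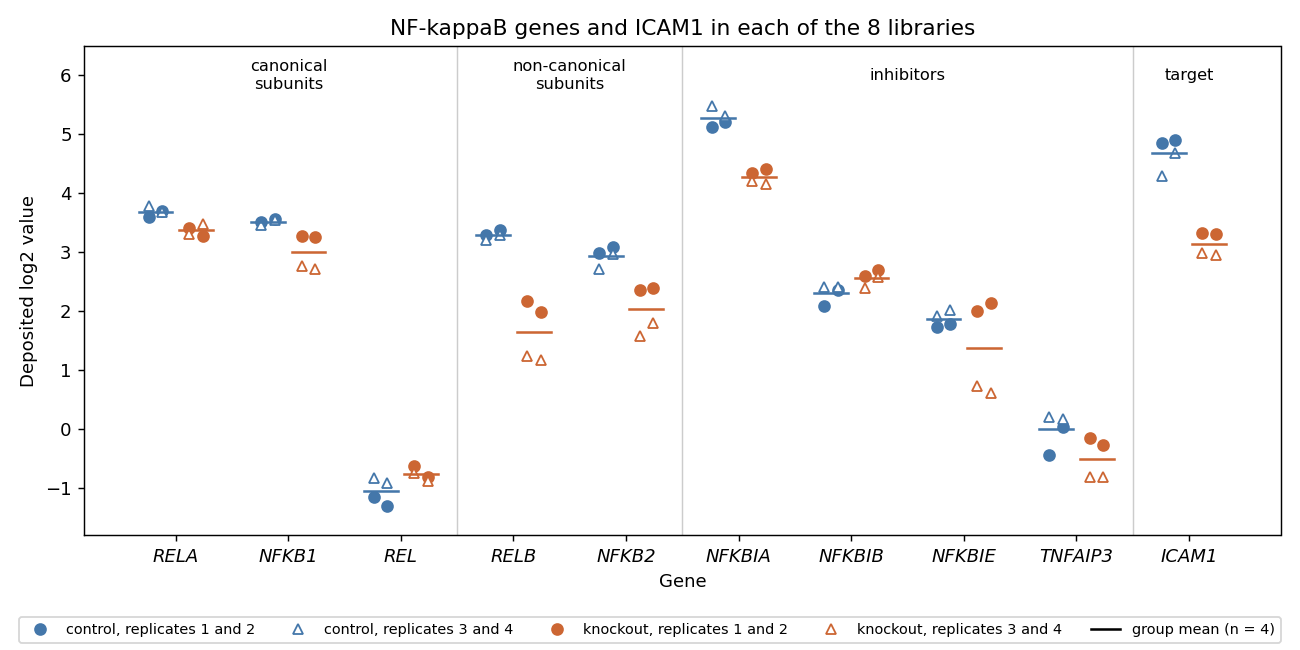
Deposited log2 value (vertical axis) of each of the 10 genes in each library, with controls in blue and knockouts in orange, circles for replicates 1 and 2, open triangles for replicates 3 and 4, and lines for group means. For 6 genes, all of them lower in the knockouts, the groups do not overlap, and for 8 of the 10 genes, all but RELA and REL, both knockout triangles lie below both knockout circles.

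Of the canonical subunits, RELA and NFKB1 were lower in the knockout libraries and REL overlapped. RELA, which carries the main transactivation domain of the classical dimer, lies at chromosome 11, 65653601 to 65663857. Controls 1 to 4 had log2 values of 3.59, 3.70, 3.79 and 3.68, and knockouts 1 to 4 had 3.42, 3.27, 3.32 and 3.48. Every knockout library was below every control, and the difference was -0.32 ± 0.07 (SE, n = 4 each), where the median size over all tested genes was 0.16. It was alike in replicates 1 and 2 (-0.30) and in replicates 3 and 4 (-0.34).

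NFKB1 (chromosome 4, 102501359 to 102617302) encodes p105, the precursor of p50. It was at 3.51, 3.56, 3.46 and 3.54 in the controls and at 3.28, 3.26, 2.76 and 2.71 in the knockouts. The groups did not overlap, and the mean difference was -0.51 ± 0.14 (SE, n = 4 each). Replicates 1 and 2 gave -0.26 and replicates 3 and 4 gave -0.76, so knockout libraries 3 and 4 held most of it.

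REL (chromosome 2, 60881574 to 60931612) encodes c-Rel, a subunit best known from lymphoid cells. It was low throughout, at -1.15, -1.31, -0.83 and -0.91 in the controls and -0.62, -0.81, -0.75 and -0.88 in the knockouts. The groups overlapped, and the mean log2 difference was 0.29, the only subunit with a higher mean in the knockout libraries. Replicates 1 and 2 gave 0.52 and replicates 3 and 4 gave 0.06, and in the fit without the minimum mean these did not differ past the threshold (-0.46, limma adjusted p = 0.0594).

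The non-canonical subunits had the larger differences, but RELB had been seen to be among the largest before the list was drawn up. RELB (chromosome 19, 45001464 to 45038192) was at 3.29, 3.37, 3.21 and 3.29 in the controls, a spread of 0.07 (SD, n = 4). It was at 2.17, 1.98, 1.24 and 1.18 in the knockouts. All 4 knockout libraries lay more than a log2 unit below every control, and knockout libraries 3 and 4 lay lowest. Replicates 1 and 2 gave a difference of -1.26 ± 0.07, and replicates 3 and 4 gave -2.04 ± 0.08 (SE, n = 2 libraries per group).

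NFKB2 (chromosome 10, 102394110 to 102402529), the gene of p100 and p52, also had its lowest values in knockout libraries 3 and 4. It was at 2.99, 3.09, 2.72 and 2.98 in the controls and at 2.35, 2.39, 1.58 and 1.80 in the knockouts. The groups did not overlap, with a difference of -0.91 ± 0.19 (SE, n = 4 each). The first of the replicate pairs gave -0.67 and the second gave -1.16.

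The subunits were also set against one another inside each library. The shift of such a pair is the difference of the first gene minus that of the second, from the same normalized values. It is therefore neither separate evidence nor a check of the normalization, and no share over other gene pairs is given. RELB minus RELA was -0.30, -0.32, -0.58 and -0.39 in the controls and -1.25, -1.29, -2.08 and -2.30 in the knockouts, a shift of -1.33 log2 units with no overlap. NFKB2 minus NFKB1 averaged -0.57 ± 0.12 (SD, n = 4) in the controls and -0.97 ± 0.14 in the knockouts. That shift of -0.40 was nearly the same in replicates 1 and 2 (-0.41) and in replicates 3 and 4 (-0.39). NFKB1 minus RELA overlapped between the groups, with a shift of 0.04 in the first replicate pair and of -0.43 in the second. Averaged over RELB and NFKB2 the difference was -1.28, against -0.42 averaged over RELA and NFKB1 and -0.18 with REL included. RELB had been seen among the largest differences before the list was drawn up, so the comparisons that hold it carry that selection. Without RELB, NFKB2 was at -0.91 ± 0.19, against -0.51 ± 0.14 for NFKB1 and -0.32 ± 0.07 for RELA (SE, n = 4 each).

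**Figure D2:**
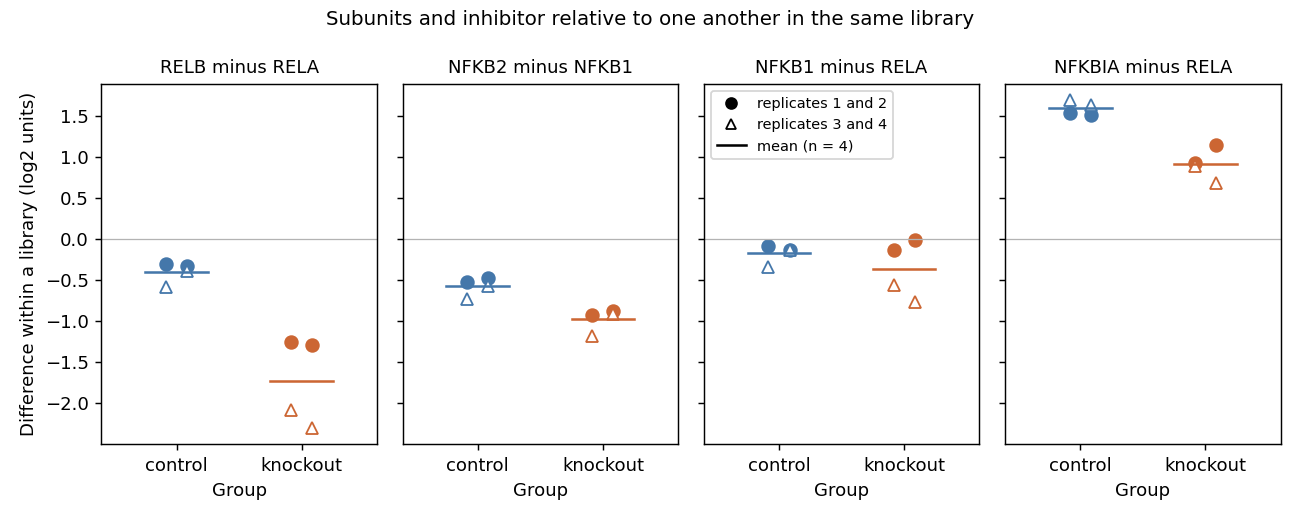
Difference in log2 value between the named genes inside the same library, by group, with circles for replicates 1 and 2, open triangles for replicates 3 and 4, and lines for means of 4 libraries. The height of a panel depends on both genes' unstated scaling, so only the shift between groups is read: it was -1.33 for RELB minus RELA, -0.40 for NFKB2 minus NFKB1 and -0.68 for NFKBIA minus RELA, and NFKB1 minus RELA overlapped.

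Of the inhibitors, NFKBIA was lower in every knockout library, and the groups overlapped for the other genes. NFKBIA (chromosome 14, 35401513 to 35404749) encodes IκBα, the inhibitor that NF-κB restores after each round of activation. It was at 5.13, 5.20, 5.48 and 5.32 in the controls and at 4.35, 4.42, 4.21 and 4.16 in the knockouts. No knockout library reached the lowest control, and the difference was -1.0 ± 0.1 (SE, n = 4 each). The first replicate pair gave -0.78 and the second gave -1.22. NFKBIA minus RELA inside a library shifted by -0.68 without overlap.

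NFKBIB (chromosome 19, 38899666 to 38908889), which encodes IκBβ, was at 2.08, 2.36, 2.41 and 2.41 in the controls and at 2.60, 2.69, 2.40 and 2.58 in the knockouts. Knockout library 3 lay within the control range, and the difference of 0.25 ± 0.10 (SE, n = 4 each) had the opposite sign to that of NFKBIA. Most of it came from replicates 1 and 2, which gave 0.42, while replicates 3 and 4 gave 0.08, and control library 1 was the lowest of the controls. NFKBIA minus NFKBIB averaged 2.97 ± 0.11 (SD, n = 4) in the controls and 1.71 ± 0.10 in the knockouts, and the groups did not overlap.

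NFKBIE (chromosome 6, 44258166 to 44265551), the gene of IκBε, split the knockout libraries. Its values were 1.74, 1.78, 1.91 and 2.03 in the controls, and 2.01, 2.13, 0.73 and 0.61 in the knockouts. Knockout libraries 1 and 2 were near or above the highest control, and libraries 3 and 4 were more than a log2 unit below them. The overall difference of -0.49 ± 0.35 (SE, n = 4 each) therefore describes neither pair. The first replicate pair gave 0.31 and the second gave -1.30.

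TNFAIP3 (chromosome 6, 137866349 to 137883312) encodes A20, a ubiquitin-editing enzyme that shuts off signalling upstream of the kinase complex. It was at -0.44, 0.03, 0.21 and 0.18 in the controls and at -0.15, -0.27, -0.82 and -0.81 in the knockouts. The groups overlapped because control library 1 was below knockout libraries 1 and 2. The first replicate pair gave a difference of -0.00 and the second gave -1.01.

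ICAM1 (chromosome 19, 10271120 to 10286615) encodes an adhesion receptor for leukocyte integrins. It was at 4.86, 4.90, 4.30 and 4.69 in the controls and at 3.33, 3.31, 2.98 and 2.95 in the knockouts. The groups were well apart, with a difference of -1.54 ± 0.15 (SE, n = 4 each). The lowest control was library 3. ICAM1 minus RELB overlapped between the groups, but its shift was -0.30 in the first replicate pair and 0.52 in the second, whereas ICAM1 minus RELA shifted by -1.22 without overlap.

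Whether the change differed between the replicate pairs was tested for every gene as the change in replicates 3 and 4 minus that in replicates 1 and 2. This was not the contrast the list came from, although the pairs were known to differ. Of the 8 tested members, 5 had a limma adjusted p-value under 0.05, all with a lower change in replicates 3 and 4, where 41.3% of all tested genes were called and 22.9% with that sign. The difference was -1.61 ± 0.11 (SE) for NFKBIE (limma adjusted p = 3.8e-05) and -0.78 ± 0.11 for RELB (limma adjusted p = 8.3e-04). It was -0.50 for NFKB1, -0.49 for NFKB2 and -0.43 for NFKBIA, with limma adjusted p-values of 0.00248, 0.0241 and 0.0103. TNFAIP3, in the fit without the minimum mean, had a difference of -1.0 (limma adjusted p = 0.0228, with 27.4% of genes called).

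ICAM1 and RELA were not called for this difference. That of ICAM1 was 0.03 ± 0.15 (SE, limma adjusted p = 0.893) and that of RELA was -0.04 ± 0.12 (SE, limma adjusted p = 0.815). The median over the 8 tested members was -0.46, against -0.03 over all tested genes. The spread in this fit comes only from libraries of the same replicate pair, so its p-values measure only that spread. Libraries of a pair resembled each other closely in the knockouts and in controls 1 and 2. Controls 3 and 4 did so less, with an SD of the difference of 0.19. Control libraries 3 and 4 decided the ICAM1 value, which was -0.17 without control library 3 (limma adjusted p = 0.118) and 0.23 without control library 4 (limma adjusted p = 0.0436). NFKB2 kept its call in 4 of 8 fits that left out 1 library, and lost it without control library 1 or knockout library 1, 2 or 3 (limma adjusted p = 0.0643 to 0.0837). RELB, NFKB1, NFKBIA and NFKBIE kept theirs in all 8.

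**Figure D3:**
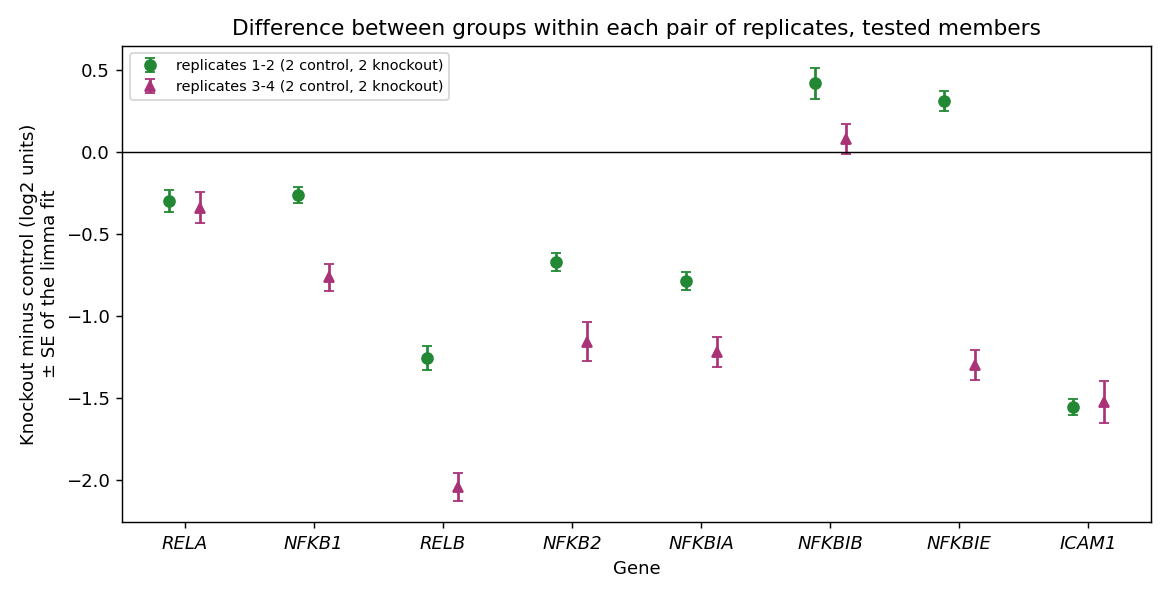
Knockout minus control in log2 units (vertical axis) for the 8 tested genes, within replicates 1 and 2 (green circles) and within replicates 3 and 4 (purple triangles), each from 2 control and 2 knockout libraries, with bars for the SE of the limma fit. The points lie within their SE bars of each other for RELA and ICAM1, and lie apart by -0.78 for RELB and by -1.61 for NFKBIE, where they fall on opposite sides of 0.

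The genes next to the members were looked at because reads of close or overlapping genes can be shared. CLASRP, 853 bases from RELB, had a log2 difference of 0.01 (limma adjusted p = 0.965). ICAM4, 340 bases from ICAM1, was low, at a mean of -4.19 over the 3 controls with a value. ICAM5 differed by -0.45 (limma adjusted p = 0.221). SLC35B2, 276 bases from NFKBIE, had a change of -0.06 in the first replicate pair and of -0.68 in the second, a difference of -0.62 (limma adjusted p = 0.00602) with the sign of that of NFKBIE. Its part in the NFKBIE result was not tested.

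The rest of the pathway was counted over 7 lists of 134 genes that are not members, of which 70 were tested, 10 fell and 4 rose (limma adjusted p under 0.05). Some genes stand in 2 lists, and the lists were written with earlier results of these data known. They describe how far the pattern of the members extended, set against the 13.1% of all tested genes that were called, 6.1% lower and 7.02% higher.

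Of 17 tested kinases and adaptors of the canonical branch, 2 rose and 1 fell. CHUK, the IKKα kinase that also serves the non-canonical branch, rose by 0.31 ± 0.08 (SE, limma adjusted p = 0.0317), and IKBKG, the regulatory NEMO subunit, rose by 0.30 ± 0.07 (SE, limma adjusted p = 0.0342). TAB2, an adaptor of the TAK1 kinase, fell by 0.30 log2 units (limma adjusted p = 0.0375). None of these 3 was called with the replicate block (limma adjusted p = 0.0706, 0.0634 and 0.0551), which called 0 of the 17 against 5 at an unadjusted p under 0.05. IKBKB, the kinase IKKβ, was at 2.10 in the controls and 2.06 in the knockouts. Leaving out 1 library kept the call of CHUK in 3 of 8 fits, of IKBKG in 1 and of TAB2 in 1. The change of CHUK differed between the replicate pairs (0.44 and 0.18, limma adjusted p = 0.0491). Those of IKBKG and TAB2 were not called for this difference (limma adjusted p = 0.419 and 0.244). The list median was -0.03.

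Of the 7 tested non-canonical signalling genes, CHUK was the only one called. MAP3K14, the NIK kinase at the head of this branch, was at 1.54 ± 0.17 and 1.56 ± 0.22 (SD, n = 4 each), and TRAF3, which keeps NIK low, was at 2.74 and 2.57. BIRC3, which encodes the ubiquitin ligase cIAP2, was singled out after its values were seen. It was at 2.24, 2.10, 2.19 and 2.17 in the controls and at 1.76, 1.77, -0.51 and -0.64 in the knockouts. All knockout libraries were below all controls, but the spread between them was such that the limma adjusted p was 0.102, and the change differed between the replicate pairs (-0.40 and -2.76, limma adjusted p = 7.1e-06).

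Among 12 tested inhibitors and feedback regulators outside the members, limma called 0, and 1 had an unadjusted p under 0.05. CYLD, a deubiquitinase of the pathway, was at 1.85 and 1.86, and TNIP1, a partner of A20, was at 3.86 and 3.72 in controls and knockouts. Their median difference was -0.04.

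Upstream, 2 of 6 tested receptors fell. These were the death receptors TNFRSF10B, by 0.36 log2 units (-0.36 ± 0.06, SE, limma adjusted p = 0.0103), and TNFRSF10A, by 0.35 (limma adjusted p = 0.0214). Neither was called with knockout pairs averaged (limma adjusted p = 0.100 and 0.136), and TNFRSF10A was called in 4 of 8 fits that left out 1 library. TNFRSF1A, the main TNF receptor, was at 4.59 in the controls and 4.43 in the knockouts (limma adjusted p = 0.119). Of the activating ligands, 2 were tested. IL1B was at 4.58, 4.61, 4.56 and 4.55 in the controls and at 3.45, 3.63, 3.88 and 3.87 in the knockouts, and fell by 0.86 (limma adjusted p = 0.00239). IL1A had knockout values of 5.03, 5.15, 3.81 and 3.82 against control values of 5.20 to 5.27, and was not called (limma adjusted p = 0.132). The TNF gene was low in both groups, at -4.90 in the controls and -5.17 in the 2 knockout libraries with a value.

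Of 29 tested genes that textbooks list as NF-κB targets, 5 fell and 2 rose, and 22 did not pass the test. The median difference was -0.09. JUNB, an AP-1 subunit, was at 4.35, 4.40, 4.21 and 4.39 in the controls and at 3.62, 3.63, 3.61 and 3.65 in the knockouts. It fell by 0.71 (limma adjusted p = 0.00117), with a knockout spread of only 0.02 (SD, n = 4). SDC4, a cell-surface proteoglycan, fell by 0.76 (limma adjusted p = 0.0110), and PTGS2, the inducible cyclooxygenase, fell by 0.66 (limma adjusted p = 0.0249). MMP9, a matrix protease, had the largest fall in the list, from 4.38, 4.43, 3.85 and 4.26 in the controls to 2.53, 2.50, 0.98 and 1.06 in the knockouts (limma adjusted p = 0.00696). The change differed between the replicate pairs for PTGS2 (-0.35 and -0.97, limma adjusted p = 0.00542) and MMP9 (-1.89 and -3.03, limma adjusted p = 8.3e-04). For JUNB and SDC4 it was not called (limma adjusted p = 0.562 and 0.0906).

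The other called targets, named after their values were seen, were CD83, which fell by 0.56 (limma adjusted p = 0.00921), and SOD2 and BCL2L1, which rose. SOD2, the mitochondrial superoxide dismutase, rose by 0.45 (limma adjusted p = 0.0186), from 1.42 to 1.56 in the controls to 1.75 to 2.15 in the knockouts. BCL2L1, a survival gene, rose by 0.26 (limma adjusted p = 0.0445), and was not called with the replicate block (limma adjusted p = 0.0759). BCL2A1, lower by a mean of 0.59 log2 units (-0.59), was called only with the block (limma adjusted p = 0.0195 against 0.0876). The cytokine gene CXCL8 was at 2.94 ± 0.88 and 2.67 ± 0.14 (SD, n = 4 each) and did not pass the test. NFKBIZ, IRF1 and CCND1 did not pass it either.

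With each close pair of knockout libraries averaged to 1, the calls among targets dropped to JUNB and MMP9 (limma adjusted p = 0.0270 and 0.0387), and those in the other lists to IL1B (limma adjusted p = 0.0270). Among the tested members they dropped to RELB, NFKBIA and ICAM1, against 1.2% of all tested genes and 0.71% with the lower sign. Nothing is read from the member calls, as the list came from this contrast. With control pairs averaged as well, limma called 0 of 9016 genes (0%), and 706 genes and 4 of the 8 tested members had an unadjusted p under 0.05.

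**Figure D4:**
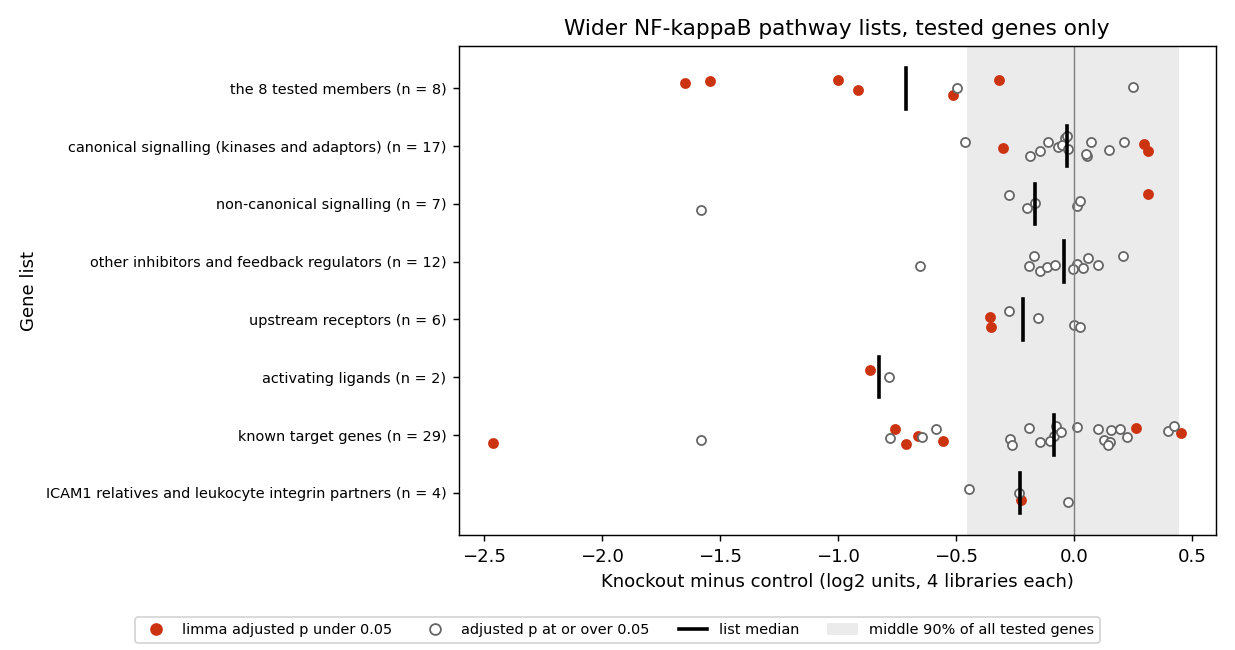
Knockout minus control in log2 units (horizontal axis) for the tested members and for tested genes of the 7 wider pathway lists, with filled points for a limma adjusted p under 0.05, black bars for list medians and grey for the middle 90% of all tested genes. The members, chosen from this contrast, have a median of -0.71. The medians are -0.03 for the kinases and adaptors, -0.04 for the other inhibitors and -0.09 for the targets. They are -0.16 for non-canonical signalling (7 tested genes), -0.21 for the receptors (6), -0.23 for the ICAM1 relatives (4) and -0.82 for the ligands (2).

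Of 12 relatives and leukocyte integrin partners of ICAM1, 4 were tested, and the others had blanks or fell below the minimum mean. MSN, which encodes moesin and links ICAM1 to the actin cortex, fell by 0.23 (limma adjusted p = 0.0400) from 8.16 ± 0.03 to 7.94 ± 0.06 (SD, n = 4 each), and was not called with the replicate block (limma adjusted p = 0.0878). The relative EZR was at 6.26 and 6.03 (limma adjusted p = 0.0611). ITGB2, the β chain of the leukocyte integrins, was at 0.03 and 0.09, and the related receptor gene VCAM1 was blank in all libraries.

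The genes most like RELB and ICAM1 over the 8 libraries were listed by Pearson's r, as a description in which the libraries share their groups and replicate pairs. For RELB they were MMP9 (r = 0.994), COPG1 (0.994), MFSD10 (0.991), SEC24D (0.991) and ATP13A2 (0.991). Each was lower in the knockouts, with the larger difference in replicates 3 and 4, as for SEC24D, with differences of -0.71 and -1.12. For ICAM1 they were TMEM132A (r = 0.995), KLHL5 (0.994), CASP8 (0.993), SNX21 (0.991) and SLC2A3 (0.991). These were lower by similar amounts in both replicate pairs, as for TMEM132A, with differences of -1.01 and -0.93. The lists for RELB and ICAM1 had no gene in common. Genes chosen by r share the pattern of the gene they were matched to, so nothing is read from these patterns.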

How the data were processed

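The authors deposited 1 table with a log2 value per gene symbol and library. The submitters' processing notes name bcl2fastq, Partek 7.0 and GRCh38. The aligner, counting, annotation, strand setting and unit before the logarithm are not given in the sources used here, and base 2 was inferred. The deposited log2 values had the same mean (1.07) and median (1.77) in every library, so they had been quantile normalized, and blank cells were kept as missing. The labels' protocols name TRIzol extraction and a stranded total-RNA kit. The labels number the replicates but name no separate cultures, so p-values measure the spread between these libraries.

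Groups and replicate numbers came from sample titles. Knockout was compared with control with limma 3.58.1 in R 4.3.3 (no trend or covariate) on 9016 genes with 8 values and a mean of at least 1, with Benjamini-Hochberg adjustment over all of them and calls under 0.05. The difference between replicate pairs used the same genes. The code was checked on simulated data with independent noise in every library and no replicate pairs. That check therefore says nothing about error rates where libraries of a pair resemble each other. Same-numbered control and knockout libraries deviated together (r = 0.24, 0.27, 0.29 and 0.20 for replicates 1 to 4), as did other libraries of the same replicate pair, so the number was also used as a block. Other alternatives were other minimum means, a pseudocount, 2 scalings, a variance trend, a batch term, averaged pairs, single replicate pairs, a stricter threshold and leaving out each library. Members and lists were chosen with earlier results of these data known. All 10 members are named. From each list the text names up to 4 called genes with the largest change, and core enzymes by value. For RELB and ICAM1 the 5 most alike genes are named. Coordinates are from RefSeq on GRCh38.p14.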

Additional observations from a re-analysis of the deposited data

Results flagged for a closer look

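The change from control to knockout differed between replicates 1 and 2 and replicates 3 and 4 for 5 of the 8 tested members (limma, adjusted p under 0.05), and each was lower in replicates 3 and 4. The change in replicates 3 and 4 minus that in replicates 1 and 2 was -0.785 for RELB, -0.502 for NFKB1, -0.486 for NFKB2, -0.434 for NFKBIA and -1.61 for NFKBIE. TNFAIP3, in the fit without the minimum mean, gave -1.0. All tested genes were called at a rate of 41.3% in the same test.

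In the control libraries, NFKBIB in library 1 (2.08) stood apart from the others (2.36 to 2.41), with a gap of 0.854 of the whole range which is past Dixon's critical value for 4 samples. It was 1 of 20 groups of 4 libraries examined in this way, and chance gives about 1 in 20.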

How the results depend on the processing

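Against 1183 genes called over all libraries, a mean of at least 3 gave 729, a batch term for replicates 1-2 against 3-4 gave 2274, averaged knockout pairs gave 108, averaged knockout and control pairs gave 0 (706 at an unadjusted p under 0.05), replicates 1-2 only gave 5380, replicates 3-4 only gave 2987 and an adjusted p under 0.01 gave 272. Leaving out 1 library gave 391 (without control library 4) to 1353 (without control library 3). The replicate block gave 924, and changed no call among tested members and listed genes for knockout against control beyond those of RELA, NFKB1, CHUK, IKBKG, TAB2, MSN, BCL2L1 and BCL2A1 given above.

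Of the tested members, 6 were called over all libraries and 6 with the batch term for replicates 1-2 against 3-4. The replicate block called 4, averaged knockout pairs 3, and averaged knockout and control pairs 0. An adjusted p under 0.01 gave 3, no minimum mean gave 5 (1157 of 13943 genes), and leaving out 1 library gave 3 to 6. The count was 3 without control library 1, 2 or 4. RELB, NFKBIA and ICAM1 were called in all 8 of those fits, NFKB2 in 5, RELA in 3 and NFKB1 in 2. Since the list was drawn up from this contrast, these counts show only how the calls depend on the processing. With no minimum mean NFKB1 lost its call. CHUK, IKBKG, TAB2 and MSN also lost theirs (limma adjusted p = 0.0531 to 0.0646). The difference of NFKBIE was 0.31 in replicates 1-2 only. The difference between replicate pairs was called for 3721 of 9016 genes and 5 of 8 members. A mean of at least 3 kept 4684 genes and 4 members, and called 2023 and 2 of them. Leaving out 1 library gave 2420 to 4368 genes and 4 to 6 members. Without 1 library, the difference between replicate pairs ran from -0.12 to 0.0409 for RELA and from -0.17 to 0.23 for ICAM1. That of RELA was 0.01, 0.01, 0.03 and 0.0409 without control library 1, control library 3, knockout library 1 and knockout library 3, and that of ICAM1 was -0.17 without control library 3. With no minimum mean NFKB2 was not called for it (limma adjusted p = 0.0760). With the replicate block 3554 genes and 6 members were called for this difference, NFKBIB being added. The cause of these shifts was not tested. Because depth is unknown, the counting error of low values such as those of REL and TNFAIP3 cannot be given.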
